A study of Mus musculus with 12 samples.

Results

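The facilitative glucose transporters (the Slc2a or GLUT family) were read on 12 expression arrays of isolated mouse glomeruli. The members were the 9 genes Slc2a1, Slc2a3, Slc2a4, Slc2a5, Slc2a6, Slc2a8, Slc2a9, Slc2a10 and Slc2a12, out of 18194 genes measured, and the rule took them by name; they were picked with earlier results of these data known. They had 18 probe sets in all, and each gene was represented by its lead probe set, the one with the highest mean over the 12 arrays. Glomeruli came from male mice aged 6 to 8 weeks, were kept without serum and were then exposed to murine TNF at 50 ng/ml for 12 hours ex vivo. The genotypes were Tnfr1,2-/- (B6.129-Tnfrsf1atm1Mak,Tnfrsf1btm1Mwm, lacking both TNF receptors), Tnfr1-/- (B6.129-Tnfrsf1atm1Mak), Tnfr2-/- (B6.129-Tnfrsf1btm1Mwm) and wildtype (C57BL/6J), with 3 arrays each. The wildtype controls and the double mutants were both bred by crossing the single mutants. The receptors were missing in every cell of the mutants, and all 12 preparations had received TNF, so the values compare genotypes under TNF and show no response to TNF within a genotype. Which animals went into each preparation is not given in the sources used here, so p-values measure the spread between these preparations.

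Proteins of the Slc2a family let glucose and related sugars cross membranes down their gradient, without the sodium gradient that the Slc5a cotransporters use. GLUT1, GLUT3 and GLUT4, encoded by Slc2a1, Slc2a3 and Slc2a4, are the classical members: GLUT1 carries basal uptake and is a main glucose transporter of mesangial cells, GLUT3 has a high affinity and serves neurons, and GLUT4 moves to the cell surface of muscle and fat cells on insulin. GLUT5 (Slc2a5) carries fructose and GLUT9 (Slc2a9) carries urate. GLUT6, GLUT8, GLUT10 and GLUT12 form a further class, several of which reside on intracellular membranes; GLUT6 (Slc2a6) has been found on lysosomes and is known from activated mouse macrophages. TNF signals through TNFR1, encoded by Tnfrsf1a, and TNFR2, encoded by Tnfrsf1b.

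All values are log2 signals. A gene was called when its adjusted p from limma was under 0.05 and its change was at least 1.5-fold. Tnfrsf1b averaged 5.48 in Tnfr1,2-/-, 5.33 in Tnfr2-/-, 7.48 in Tnfr1-/- and 7.63 in wildtype glomeruli, and Tnfrsf1a averaged 9.29 in Tnfr1,2-/-, 9.74 in Tnfr1-/-, 10.73 in Tnfr2-/- and 10.56 in wildtype glomeruli, each lower where its own gene was targeted. Where the probes of these genes lie relative to the deleted parts is not given in the sources used here. The difference between the 3 prime and 5 prime beta-actin control probe sets, a measure of RNA and labelling quality, split the arrays into a set of 7 (0.667 to 1.005) and a set of 5 (1.821 to 2.297). The second set held Tnfr1,2-/- 2 and 3 and the third array of each other genotype, so both sets held every genotype. No marker of the podocyte, endothelial or mesangial lists was below the array median on every array. The summed linear signal of 6 podocyte markers was 25340 to 28680 in Tnfr1,2-/- and 11280 to 29070 in Tnfr1-/- glomeruli. It was 14200 to 22900 in Tnfr2-/- and 17890 to 22060 in wildtype glomeruli. Against wildtype limma called 0 of the 6. Their median change was 0.43 in Tnfr1,2-/- (range 0.22 to 0.83), -0.04 in Tnfr1-/- and -0.02 in Tnfr2-/- glomeruli. For 7 mesangial and smooth muscle markers the summed linear signal was 15200 to 23030 in Tnfr1,2-/- and 16230 to 16540 in Tnfr1-/- glomeruli. It was 12190 to 15210 in Tnfr2-/- and 10740 to 14940 in wildtype glomeruli. Of these 7, 1 was called higher with TNFR1 loss (Itga8, 0.98, limma adjusted p = 0.0025), where 0.929% of all genes were called higher. The summed signal of 8 endothelial markers was 5627 to 9014 in Tnfr1,2-/-, 6800 to 10880 in Tnfr1-/-, 6336 to 9632 in Tnfr2-/- and 5048 to 6675 in wildtype glomeruli. Their median change against wildtype was 0.22 in Tnfr1,2-/-, 0.70 in Tnfr1-/- (1 called higher, against 0.484% of all genes) and 0.54 in Tnfr2-/- glomeruli. Tubular RNA was present: Fxyd2 averaged 8.09 to 8.71 and Umod 6.80 to 7.79 over the genotypes, while Slc34a1 and Cubn were below the array median on all 12 arrays, and the 8 tubular markers summed to between 375 and 1498. The neutrophil markers S100a9, Mpo, Elane and Cxcr2 were below the array median on all 12 arrays. The part of these cell types in the members' changes was not tested.

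Slc2a6 carried the largest difference between genotypes among the 9 members. Its signal was low in both genotypes without TNFR1 and high in both genotypes with it, whatever the state of TNFR2. The Slc2a6 probe set 1434015_at read 4.39, 4.46 and 3.68 in Tnfr1,2-/- glomeruli, against 8.89, 9.35 and 8.73 in wildtype glomeruli. It read 4.35, 5.22 and 4.53 in Tnfr1-/- glomeruli and 9.26, 9.01 and 8.42 in Tnfr2-/- glomeruli. The highest of the 6 arrays without TNFR1 (5.22) stood below the lowest of the 6 arrays with TNFR1 (8.42), with no array between them. Arrays did not overlap in that direction for 1.78% of all genes. Over genotypes Slc2a6 averaged 4.18 ± 0.43 in Tnfr1,2-/-, 4.70 ± 0.46 in Tnfr1-/-, 8.90 ± 0.43 in Tnfr2-/- and 8.99 ± 0.32 in wildtype glomeruli (SD, n = 3 each). The order of the levels was therefore Tnfr1,2-/-, Tnfr1-/-, Tnfr2-/- and wildtype, with overlapping arrays between the neighbours of the low pair and between those of the high pair, and a gap between the pairs.

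**Figure D1:**
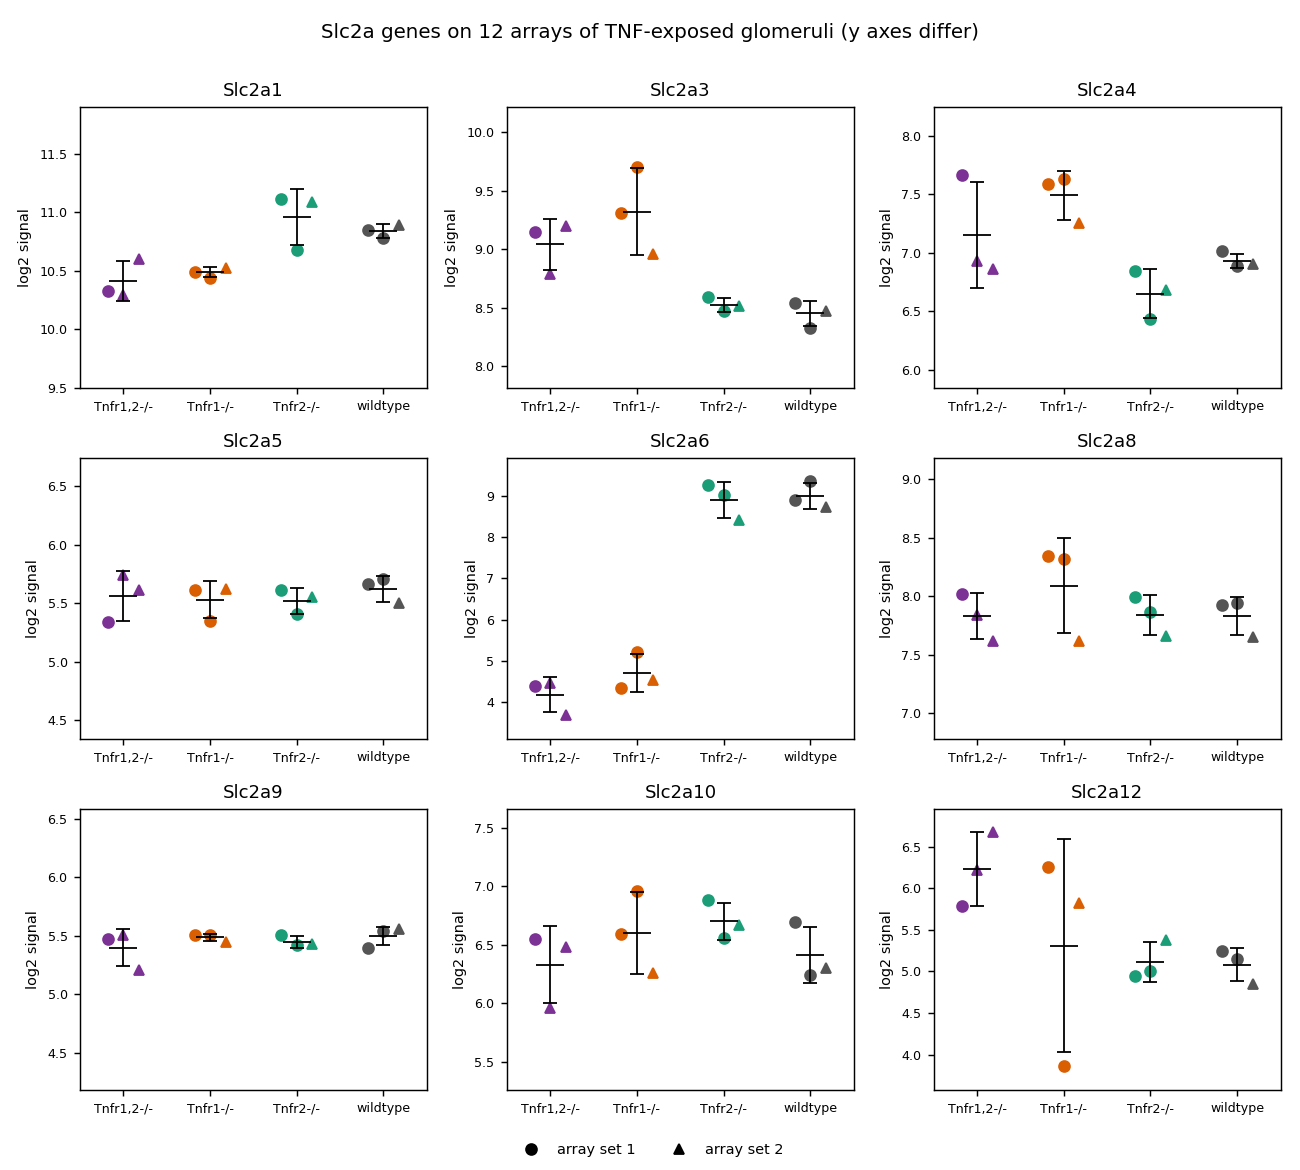
Log2 signal (vertical axes, which differ in range) of the lead probe set of each of the 9 Slc2a genes in Tnfr1,2-/-, Tnfr1-/-, Tnfr2-/- and wildtype glomeruli; each symbol is 1 array, circles and triangles are the 2 array sets, and bars are the mean and SD. Slc2a6 lies between 3.68 and 5.22 on the 6 arrays without TNFR1 and between 8.42 and 9.35 on the 6 arrays with it.

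Relative to wildtype, Slc2a6 fell by 4.81 ± 0.301 in Tnfr1,2-/- glomeruli on the log2 scale (28.1-fold; SE, limma adjusted p = 1.1e-05). In Tnfr1-/- glomeruli it fell by 4.29 ± 0.301 (19.6-fold; SE, limma adjusted p = 2.8e-05). In Tnfr2-/- glomeruli the difference from wildtype was -0.09, with a 95% interval of -0.75 to 0.57 (limma adjusted p = 1). Of the 9 members, 1 was called lower and 0 higher in Tnfr1,2-/- glomeruli, where 1.30% of all genes were called (0.879% lower and 0.418% higher). In Tnfr1-/- glomeruli 1 member was called lower and 1 higher, against 1.20% of all genes (0.720% lower and 0.484% higher). At an unadjusted limma p under 0.05 there were 4 of 9 members in Tnfr1,2-/- glomeruli, beside 8.44% of all genes. In Tnfr1-/- glomeruli there were also 4 of 9, beside 6.35% of all genes. In Tnfr2-/- glomeruli 0 of 9 members were called by limma and by SAM, the permutation test of the study's methods. An unadjusted p under 0.05 was reached by 0 members and by 128 of all genes, and limma called 0% of all genes. Tnfrsf1b, the targeted gene, was itself not called there (-2.30, limma adjusted p = 0.12). The absence of calls in this comparison therefore does not show that no gene changed.

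The mutants were also set against each other. Slc2a6 was lower by a log2 change of -4.72 in Tnfr1,2-/- than in Tnfr2-/- glomeruli (limma adjusted p = 1e-05), a comparison in which 1 member and 1.39% of all genes were called. It was higher by 4.20 in Tnfr2-/- than in Tnfr1-/- glomeruli (limma adjusted p = 3.5e-05), where again 1 member and 1.20% of all genes were called. With the replicate number as a block 3 members were called there, Slc2a3 at -0.80 (limma adjusted p = 0.047) and Slc2a4 at -0.84 (limma adjusted p = 0.024) being added. Members with an unadjusted limma p under 0.05 numbered 5 of 9 between Tnfr1,2-/- and Tnfr2-/- glomeruli, beside 8.54% of all genes. Between Tnfr2-/- and Tnfr1-/- glomeruli they numbered 4 of 9, beside 5.96%. Between Tnfr1,2-/- and Tnfr1-/- glomeruli the difference in Slc2a6 was -0.52, with a 95% interval of -1.18 to 0.14 (limma adjusted p = 0.92). No member was called between these genotypes by limma, 0 members had an unadjusted p under 0.05, and 0.00550% of all genes were called. With 3 arrays a genotype, no further change of Slc2a6 with TNFR2 loss on top of TNFR1 loss was thus detected. Its signal in Tnfr1-/- glomeruli (4.35 to 5.22) was already below the array medians (5.59 to 5.64), so a further fall could stay hidden. These comparisons share arrays with those against wildtype and are not independent of them.

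Averaged over both states of TNFR2, loss of TNFR1 (6 against 6 arrays) lowered Slc2a6 by a log2 change of -4.51 ± 0.213 (22.7-fold; SE, limma adjusted p = 4.1e-07). Loss of TNFR2, averaged over both states of TNFR1, gave -0.31 ± 0.213 (SE, limma adjusted p = 1). The interaction, which asks whether the change with TNFR1 loss depends on TNFR2, was -0.43 with a 95% interval of -1.37 to 0.50 (limma adjusted p = 1). The low Slc2a6 signals without TNFR1 limit what the interaction could show. With TNFR1 loss 1 member was called lower and 1 higher, in a comparison in which 2.52% of all genes were called (1.59% lower and 0.929% higher). There 4 of 9 members had an unadjusted limma p under 0.05, beside 11% of all genes. With TNFR2 loss and in the interaction 0 of 9 members were called and 0 had an unadjusted p under 0.05, with 0.0275% and 0% of all genes called. The change of Slc2a6 with TNFR1 loss was -4.48 within the first array set (3 against 4 arrays) and -4.35 within the second (3 against 2 arrays). It lay between -4.63 and -4.38 when each array was left out in turn.

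The deposited table gives no detection calls. On the 6 arrays without TNFR1, Slc2a6 was below the median of all probe sets (5.59 to 5.64 over the arrays), and the table gives no means to tell a low level from background there. Slc2a6 had a single probe set, so no other could be set beside it. Its fold changes are those of the normalized signal, and their exact size rests on these low values. In whole glomeruli, fewer cells that carry a transcript and less of it per cell cannot be told apart. Of 8 macrophage markers, 0 were called by limma with TNFR1 loss and 1 had an unadjusted p under 0.05, and their median change was -0.22. Against wildtype their median change was -0.41 in Tnfr1,2-/- (range -0.99 to 0.46), 0.17 in Tnfr1-/- and 0.29 in Tnfr2-/- glomeruli. In Tnfr1,2-/- against Tnfr2-/- glomeruli it was -0.50 (range -1.44 to 0.01). The summed linear signal of these 8 markers was 2055 to 2371 in Tnfr1,2-/-, 1863 to 5569 in Tnfr1-/-, 2227 to 4932 in Tnfr2-/- and 2038 to 3693 in wildtype glomeruli, so that the ranges of all genotypes overlapped; Itgam was below the array median on all 12 arrays. Of 6 neutrophil markers, 1 was called lower with TNFR1 loss, S100a8 at -1.22 (limma adjusted p = 0.0022), where 1.59% of all genes were called lower. The median change of the 6 was 0.00, and their highest was 0.26. The summed signal of the 6 was 112.5 to 149.6 in Tnfr1,2-/-, 129.7 to 139.2 in Tnfr1-/-, 157 to 169.6 in Tnfr2-/- and 140.2 to 163.9 in wildtype glomeruli. The part of these cells in the change of Slc2a6 was not tested.

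The 10 genes whose values ran most like Slc2a6 over the 12 arrays were picked by correlation alone. By Pearson's r among 2104 genes with an SD of at least 0.5, the nearest were Ccl2 (r = 0.993), which attracts monocytes, Cfb (r = 0.991), complement factor B, and Icam1 (r = 0.988), which holds leukocytes at the vessel wall. Hp, haptoglobin, and Dram1, a lysosomal membrane protein of autophagy, each stood at 0.987. Tifa, an adaptor of the TRAF proteins, stood at 0.985, and Cxcl10, a chemokine for T cells, and Serping1, the inhibitor of complement C1, at 0.984. Gpr84, a receptor for fatty acids, stood at 0.983, and Acod1, the mitochondrial enzyme that makes itaconate, at 0.982. Because the arrays fall into 2 separate groups for all of these genes, the pooled r mainly restates the gap between arrays without and with TNFR1. Within the 6 arrays without TNFR1 and the 6 arrays with it, r with Slc2a6 was 0.64 and 0.93 for Ccl2, 0.56 and 0.86 for Cfb, and 0.74 and 0.34 for Icam1. It was 0.74 and -0.49 for Cxcl10, and -0.34 and 0.84 for Gpr84. For Hp it was 0.28 and 0.66, for Dram1 0.84 and 0.54, and for Tifa 0.97 and 0.58. For Serping1 it was 0.80 and 0.70, and for Acod1 -0.28 and 0.86. These r describe arrays that share their preparation and hybridisation, and no test was made of them. With TNFR1 loss the log2 change was -5.60 for Ccl2, -5.18 for Cfb, -5.05 for Acod1 and -1.01 for Tifa.

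Slc2a6 lies on the minus strand of mouse chromosome 2 (RefSeq, GRCm38.p6, chr2:27021363-27028000), and Slc2a1 on the plus strand of chromosome 4 (chr4:119108745-119137330). The bases before the start of these genes are shown because Slc2a6 carried the largest change among the members and Slc2a1, the basal transporter, a much smaller one in the same direction. Each run holds the 250 bases before the transcript start used in the promoter table, 5′ to 3′ on the strand of the gene, chr2:27027999-27028248 (minus strand) for Slc2a6 and chr4:119108495-119108744 (plus strand) for Slc2a1, both from RefSeq on GRCm38.p6. Capitals mark a match to ACGTG, the core of the hypoxia response element.
Slc2a6: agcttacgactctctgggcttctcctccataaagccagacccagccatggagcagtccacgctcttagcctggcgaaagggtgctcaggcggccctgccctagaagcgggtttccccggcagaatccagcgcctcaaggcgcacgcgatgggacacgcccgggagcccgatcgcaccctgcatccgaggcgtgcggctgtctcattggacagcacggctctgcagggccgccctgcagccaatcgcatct
Slc2a1: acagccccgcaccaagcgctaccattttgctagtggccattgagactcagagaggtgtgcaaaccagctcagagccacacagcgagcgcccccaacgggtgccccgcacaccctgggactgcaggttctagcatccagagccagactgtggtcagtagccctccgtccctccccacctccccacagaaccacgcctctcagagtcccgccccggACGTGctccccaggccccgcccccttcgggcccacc
The same 250 bases were searched on both strands in the 7 members with an entry in the table of promoters (Slc2a3 and Slc2a4 had none) for ACGTG, for TGANTCA, the AP-1 consensus, and for the NF-kB consensus. Slc2a1 held ACGTG with its first base 36 bases before the start, and 16.6% of 32841 mouse promoters of this length hold it. Slc2a9 held TGANTCA, 144 bases before the start used in the table, against 6.75% of all promoters. Its window (chr5:38483386-38483635, minus strand) lies inside the gene (chr5:38349272-38503147), before an internal transcript start. The letters of the NF-kB consensus, which 3.9% of all promoters hold, were found in 0 of the 7 members, and none of the 3 patterns was found in the window of Slc2a6. A match or its absence in this window describes the letters and not the binding of a factor.

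Of the classical members, Slc2a3 was called higher without TNFR1, and Slc2a1 was lower by less than a call requires. Slc2a1 read 10.33, 10.29 and 10.60 in Tnfr1,2-/-, 10.49, 10.44 and 10.52 in Tnfr1-/-, 11.11, 10.68 and 11.09 in Tnfr2-/- and 10.85, 10.78 and 10.89 in wildtype glomeruli. All 6 arrays without TNFR1 lay below all 6 arrays with it (highest 10.60, lowest 10.68), as for 1.78% of all genes in that direction. The change with TNFR1 loss was -0.45 ± 0.101 (1.37-fold; SE, limma adjusted p = 0.036), under the 1.5-fold that a call requires; 1.75% of all genes were lower at this adjusted p at any fold. Singly, the differences from wildtype were -0.43 in Tnfr1,2-/- (limma adjusted p = 0.33) and -0.35 in Tnfr1-/- glomeruli (limma adjusted p = 0.61), and neither passed. The change of Slc2a1 was -0.43 within the first and -0.52 within the second array set. With TNFR1 loss Slc2a1 stayed uncalled under 22 of 24 alternatives and was called under the others. Its change reached -0.69 among the alternatives that kept all arrays.

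The other Slc2a1 probe sets did not give 1 size of change. With TNFR1 loss, Slc2a1 probe set 1426599_a_at changed by -0.58 (limma adjusted p = 0.01 over all 34958 probe sets with 1 gene symbol), just under the 1.5-fold of a call. Against wildtype its limma adjusted p was 0.14 in Tnfr1,2-/- and 0.5 in Tnfr1-/- glomeruli. Slc2a1 probe set 1426600_at changed by -1.05 ± 0.449 (SE, limma adjusted p = 0.49). On 1426600_at the arrays of the second set were lower than those of the first by -1.43 (limma adjusted p = 0.00022), and its values ran between 8.01 and 10.91. On the lead probe set the same difference between array sets was 0.11 (limma adjusted p = 0.44).

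Slc2a3 read 9.15, 8.79 and 9.20 in Tnfr1,2-/-, 9.31, 9.70 and 8.96 in Tnfr1-/-, 8.59, 8.47 and 8.51 in Tnfr2-/- and 8.54, 8.33 and 8.47 in wildtype glomeruli. The 6 arrays without TNFR1 lay above the 6 arrays with it (lowest 8.79, highest 8.59), as for 1.20% of all genes in that direction. With TNFR1 loss Slc2a3 rose by 0.70 ± 0.129 (1.62-fold; SE, limma adjusted p = 0.011). Against wildtype it rose by 0.88 ± 0.183 in Tnfr1-/- glomeruli (1.84-fold; SE, limma adjusted p = 0.045), while its difference was 0.60 ± 0.183 in Tnfr1,2-/- (SE, limma adjusted p = 0.26) and 0.07 in Tnfr2-/- glomeruli (limma adjusted p = 1). The call in Tnfr1-/- glomeruli was lost under 17 of 26 alternatives, among them leaving out Tnfr1,2-/- 1, Tnfr1-/- 1 or 2, or any Tnfr2-/- or wildtype array, and the test with SAM; adjusted p over the alternatives ran between 0.0078 and 1. The change with TNFR1 loss was 0.90 within the first array set and 0.49 within the second. The call over both genotypes held under 21 of 24 alternatives, all 12 that left out an array included. Among the alternatives that kept all arrays the change fell as low as 0.20.

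Only part of the Slc2a3 probe sets carried this difference. The lead, 1437052_s_at, and 1455898_x_at (0.73 with TNFR1 loss, limma adjusted p = 0.01 over all probe sets) are of kinds whose probes can match more than 1 transcript. On 1455898_x_at Slc2a3 read 6.83, 6.62 and 7.07 in Tnfr1,2-/-, 6.79, 7.22 and 7.02 in Tnfr1-/-, 6.23, 6.05 and 6.17 in Tnfr2-/- and 6.26, 5.96 and 6.48 in wildtype glomeruli, again with no overlap of the arrays without and with TNFR1. The probe sets 1421924_at and 1427770_a_at stayed between 3.13 and 4.37 on every array, below the array medians, and differed by 0.20 and 0.05 (limma adjusted p = 0.85 and 0.95). Slc2a3 lies on chromosome 6, 2.55 Mb from Tnfrsf1a (GRCm38.p6, chr6:122727809-122802363), and the mutant lines carry B6.129 alleles, so that DNA of the 129 donor strain can flank the targeted gene. Of 143 genes within 5 Mb of Tnfrsf1a, Slc2a3 among them, 10 were called lower and 1 higher with TNFR1 loss, 7.69% against 2.52% of all genes. The 1 called higher was Slc2a3 itself. Of 222 genes within 10 Mb, 11 were called lower and 3 higher, 6.31% against 2.52% of all genes. For Slc2a3, loss of TNFR1 and flanking donor DNA cannot be told apart in these lines.

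Slc2a4 read 7.66, 6.93 and 6.86 in Tnfr1,2-/-, 7.59, 7.63 and 7.25 in Tnfr1-/-, 6.84, 6.43 and 6.68 in Tnfr2-/- and 7.01, 6.89 and 6.90 in wildtype glomeruli. The Tnfr1-/- arrays were the highest together with 1 Tnfr1,2-/- array, and the other Tnfr1,2-/- arrays lay close to the wildtype values. Slc2a4 was not called: the change with TNFR1 loss was 0.53 ± 0.149 (SE, limma adjusted p = 0.11), the difference of Tnfr1-/- from wildtype 0.55 (limma adjusted p = 0.51) and that of Tnfr1,2-/- from wildtype 0.21 (limma adjusted p = 0.83). The change was 0.84 within the first array set and 0.22 within the second. On the second Slc2a4 probe set, 1415959_at, it was 0.55 ± 0.281 (SE, limma adjusted p = 0.63), and the arrays of the second set were lower by -0.86 (limma adjusted p = 0.0011).

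**Figure D2:**
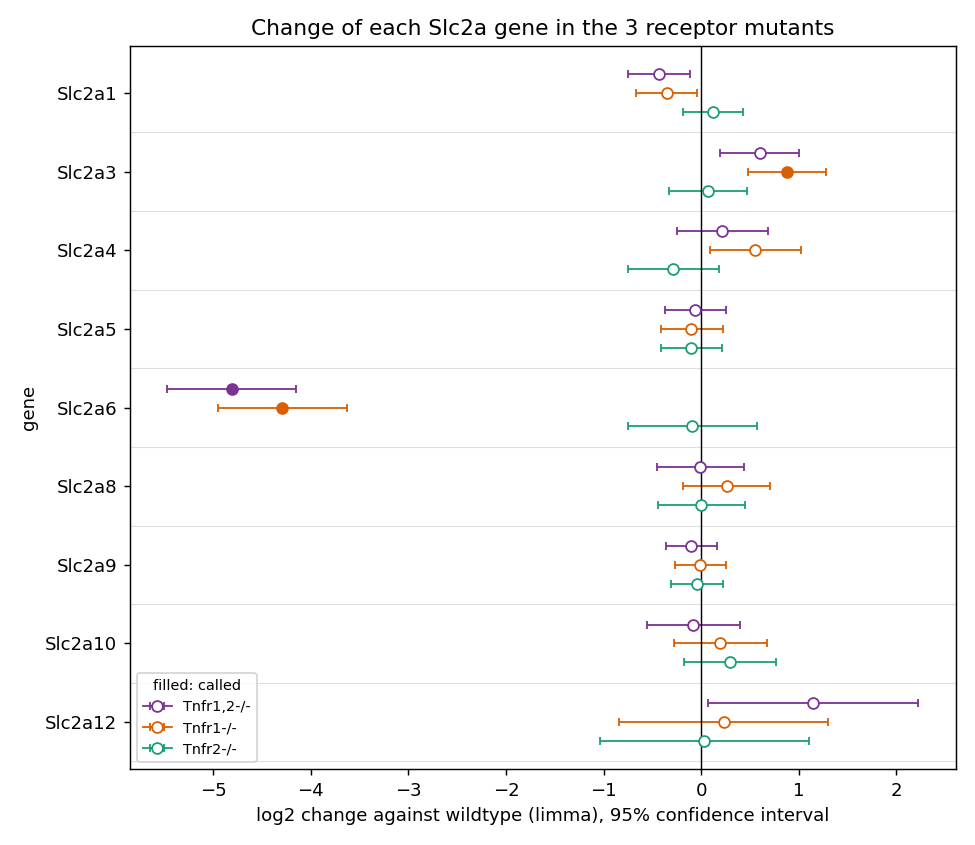
Log2 change against wildtype (horizontal axis) of each Slc2a gene in Tnfr1,2-/-, Tnfr1-/- and Tnfr2-/- glomeruli, as the limma estimate with its 95% confidence interval; filled symbols are called changes. Slc2a6 stands at -4.81 in Tnfr1,2-/- and -4.29 in Tnfr1-/- glomeruli, and every other estimate lies between -0.43 and 1.14.

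Slc2a12 varied most among the remaining members. It read 5.79, 6.22 and 6.67 in Tnfr1,2-/-, 6.26, 3.86 and 5.82 in Tnfr1-/-, 4.94, 5.01 and 5.38 in Tnfr2-/- and 5.25, 5.15 and 4.85 in wildtype glomeruli. The Tnfr1,2-/- arrays lay above all wildtype arrays, as for 6.61% of all genes in that direction, and Tnfr1-/- 2 was the lowest of the 12. The difference of Tnfr1,2-/- from wildtype was 1.14 ± 0.488 (SE, limma adjusted p = 0.54) and the change with TNFR1 loss 0.67 ± 0.345 (SE, limma adjusted p = 0.54). Without Tnfr1-/- 2 the change with TNFR1 loss was 1.04 (limma adjusted p = 0.0086) and the difference of Tnfr1,2-/- from wildtype 1.14 (limma adjusted p = 0.044), and both were called. The second Slc2a12 probe set, 1455501_at, stayed between 4.94 and 5.33 and changed by 0.08 ± 0.097 (SE, limma adjusted p = 0.91).

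The other 4 members showed no called difference in any of the 9 comparisons. Slc2a8 (GLUT8) averaged 7.83 ± 0.20 in Tnfr1,2-/-, 8.09 ± 0.41 in Tnfr1-/-, 7.84 ± 0.17 in Tnfr2-/- and 7.83 ± 0.16 in wildtype glomeruli (SD, n = 3 each). Its change with TNFR1 loss was 0.12, with a 95% interval of -0.19 to 0.44. The arrays of the second set were lower for Slc2a8 by -0.38 (limma adjusted p = 0.012). Slc2a10, the gene mutated in human arterial tortuosity syndrome, averaged 6.33 ± 0.33 in Tnfr1,2-/-, 6.60 ± 0.35 in Tnfr1-/-, 6.70 ± 0.16 in Tnfr2-/- and 6.41 ± 0.24 in wildtype glomeruli (SD, n = 3 each), and its 95% interval with TNFR1 loss was -0.43 to 0.24. Its other probe set, 1449477_s_at, changed by -0.06 (limma adjusted p = 0.94). Slc2a5, the fructose carrier, ran between 5.34 and 5.74 and was above the array median on 3 of 12 arrays. Its interval with TNFR1 loss was -0.25 to 0.19. It lies 4.87 Mb from Tnfrsf1b, and its change with TNFR2 loss was -0.03 (interval -0.25 to 0.19). On its lead probe set Slc2a9, the urate carrier, was below the array median on all 12 arrays, between 5.21 and 5.56, with an interval of -0.22 to 0.15. Its other probe set, 1426568_at, ran between 4.75 and 6.18, was above the array median on 2 arrays and changed by -0.11 (limma adjusted p = 0.95). For Slc2a5 and Slc2a9 these dim signals limit what a difference could show.

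Set against its relatives, Slc2a6 differed in size of change and not only in its call. With TNFR1 loss the other 8 members changed by -0.45 to 0.70, with a median absolute change of 0.29, and their lowest interval began at -0.68 (Slc2a1). The interval of Slc2a6 ended at -4.04. Against wildtype these 8 genes had a median absolute change of 0.16 in Tnfr1,2-/- (largest 1.14), of 0.24 in Tnfr1-/- (largest 0.88) and of 0.09 in Tnfr2-/- glomeruli (largest 0.29). The median change over all 9 members was -0.03 with TNFR1 loss, beside 0.00 over all 18194 genes. The members did not move together: with TNFR1 loss, 4 of the 8 relatives had a change below 0 and the others above. The intervals stand side by side as a description, and the difference between genes was not tested. Within the 6 arrays without TNFR1 and the 6 with it, r with Slc2a6 was 0.59 and 0.87 for Slc2a8, 0.78 and 0.36 for Slc2a9, -0.40 and -0.33 for Slc2a1, and 0.46 and -0.30 for Slc2a3. It was -0.91 and -0.40 for Slc2a12, 0.60 and 0.14 for Slc2a4, -0.47 and 0.42 for Slc2a5, and 0.39 and -0.09 for Slc2a10.

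**Figure D3:**
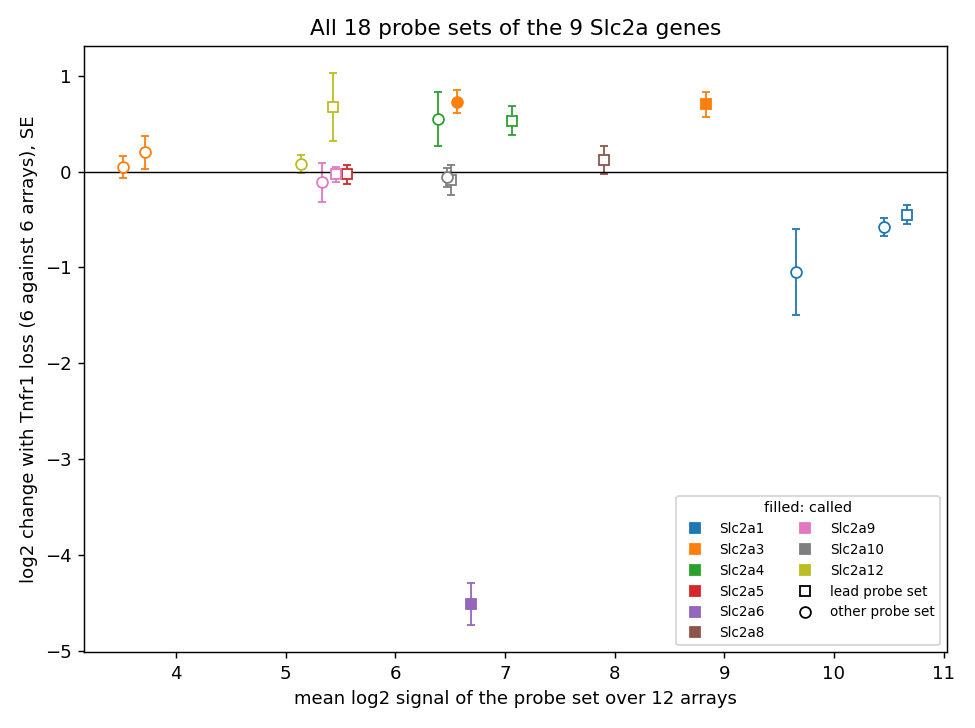
Log2 change with TNFR1 loss (6 against 6 arrays, vertical axis, with SE) of all 18 Slc2a probe sets against their mean log2 signal over the 12 arrays (horizontal axis); squares are lead probe sets, circles the others, and filled symbols are called. The 3 called probe sets are that of Slc2a6 at -4.51 and those of Slc2a3 at 0.70 and 0.73, while the 3 probe sets of Slc2a1 spread between -1.05 and -0.45.

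Around the transporters, 58 of 67 listed genes of glucose and urate handling were measured. The lists were chosen with earlier results of these data known, so their counts beside the share of all genes are a description and no test. With TNFR1 loss 2 of the 58 were called lower and 5 higher, in a comparison in which 1.59% of all genes were called lower and 0.929% higher, and 14 had an unadjusted p under 0.05, as had 11% of all genes. None of the 7 called genes was an enzyme of glucose breakdown. Of 19 genes of transporter trafficking and regulation, 1 was called lower and 4 higher, against 2.52% of all genes called, and their median change was 0.13, beside 0.00 over all genes. Txnip and Arrdc4, related arrestin-like proteins that act on the uptake of glucose transporters from the cell surface, moved in opposite directions. Txnip averaged 10.51 ± 0.14 in Tnfr1,2-/-, 10.97 ± 0.35 in Tnfr1-/-, 10.12 ± 0.10 in Tnfr2-/- and 10.11 ± 0.02 in wildtype glomeruli (SD, n = 3 each), with a change of 0.63 (limma adjusted p = 0.013). Arrdc4 read 7.53, 6.83 and 7.70 in Tnfr1,2-/-, 7.24, 7.59 and 7.76 in Tnfr1-/-, 8.71, 8.24 and 8.41 in Tnfr2-/- and 8.38, 7.96 and 8.23 in wildtype glomeruli, with a change of -0.88 (limma adjusted p = 0.013). For both genes the arrays without and with TNFR1 did not overlap, as for 1.20% of all genes in the higher and 1.78% in the lower direction. Txnip kept its call under 20 of 24 alternatives, losing it without Tnfr1-/- 2 (0.55), with array weights (0.56), at a 2-fold threshold and with its probe sets averaged (0.53, limma adjusted p = 0.64).

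The remaining called regulators take part in insulin and energy signalling. Prkaa2, a catalytic subunit of AMP-activated kinase, rose by 0.60 (limma adjusted p = 0.013), Irs1, a substrate of the insulin receptor, by 0.79 (limma adjusted p = 0.030) and Tbc1d1, which holds back the movement of GLUT4 to the surface, by 0.84 (limma adjusted p = 0.030). These calls were near the threshold. Under the 24 alternatives Prkaa2 kept its call in 17, Irs1 in 15 and Tbc1d1 in 13. Among the alternatives that kept all arrays, the change fell as low as 0.39 for Prkaa2, 0.69 for Irs1 and 0.42 for Tbc1d1. The call of Prkaa2 was lost without Tnfr1,2-/- 3, Tnfr1-/- 3 or Tnfr2-/- 2, that of Irs1 without Tnfr1-/- 1 or 3 or any Tnfr2-/- or wildtype array, and that of Tbc1d1 without Tnfr1,2-/- 2, Tnfr1-/- 1 or 2, any Tnfr2-/- array, or wildtype 2 or 3.

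Among 7 measured genes of fructose, polyol and urate handling, 1 was called lower and 1 higher, again against 2.52% of all genes. Xdh, xanthine dehydrogenase, which makes urate, read 6.46, 5.98 and 5.81 in Tnfr1,2-/-, 6.78, 8.05 and 6.33 in Tnfr1-/-, 9.38, 8.45 and 8.34 in Tnfr2-/- and 8.35, 8.67 and 8.27 in wildtype glomeruli. Every array without TNFR1 lay below every array with it, as for 1.78% of all genes in that direction. The change of Xdh was -2.01 ± 0.283 (4.02-fold, SE, limma adjusted p = 0.0017). Abcg2, an exporter of urate and many drugs, read 9.75, 9.96 and 10.24 in Tnfr1,2-/-, 9.82, 9.59 and 9.99 in Tnfr1-/-, 8.65, 8.76 and 8.97 in Tnfr2-/- and 8.69, 8.42 and 8.81 in wildtype glomeruli. It rose by 1.17 ± 0.122 (2.26-fold; SE, limma adjusted p = 0.00019). Abcg2 rose in both mutants against wildtype, by 1.34 in Tnfr1,2-/- (limma adjusted p = 0.0021) and 1.16 in Tnfr1-/- glomeruli (limma adjusted p = 0.0055). Xdh was called in Tnfr1,2-/- (-2.34, limma adjusted p = 0.013) and not in Tnfr1-/- glomeruli (-1.38, limma adjusted p = 0.22), and its interaction was -1.26 (limma adjusted p = 1). The call of Xdh in Tnfr1,2-/- glomeruli was lost without Tnfr1,2-/- 2 or 3 or wildtype 1 or 2.

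**Figure D4:**
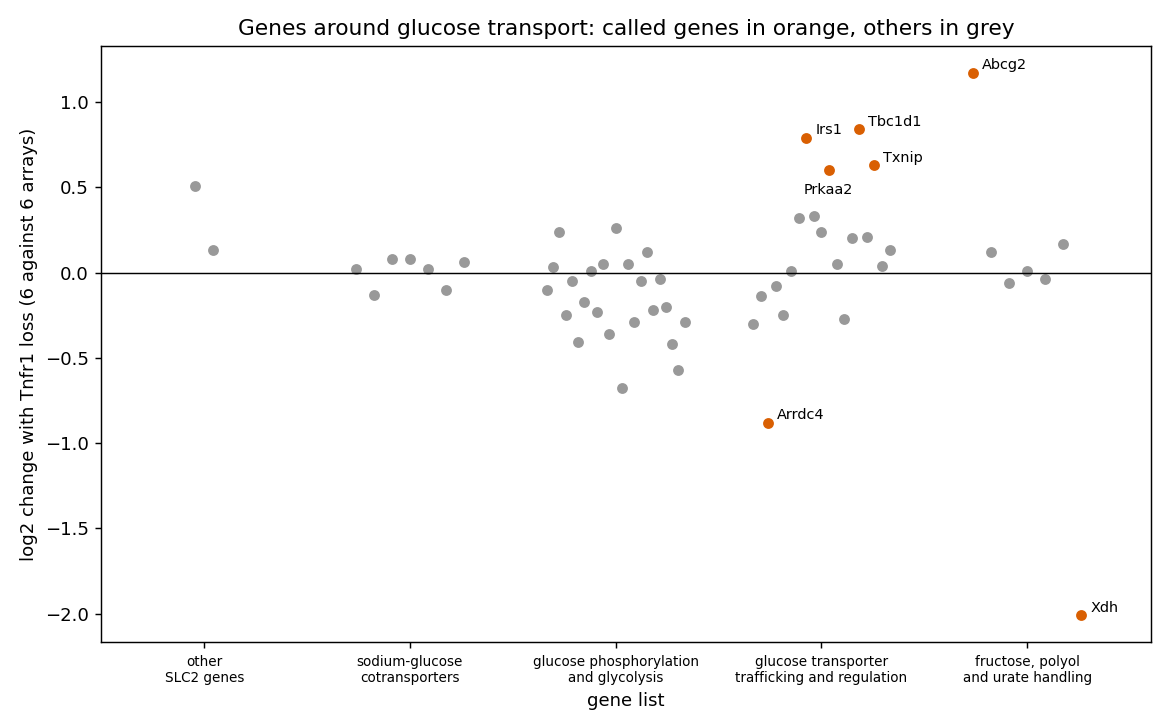
Log2 change with TNFR1 loss (6 against 6 arrays, vertical axis) of each measured gene in the 5 gene lists around glucose transport (horizontal axis); each point is 1 gene, called genes are orange with their names. Xdh (-2.01) and Arrdc4 (-0.88) are the called lower genes, and Abcg2 (1.17), Tbc1d1 (0.84), Irs1 (0.79), Txnip (0.63) and Prkaa2 (0.60) the called higher ones.

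Of 23 measured genes of glucose phosphorylation and glycolysis, 0 were called by limma with TNFR1 loss and 5 had an unadjusted p under 0.05. The median change of the 23 was -0.17, beside 0.00 over all genes. Against wildtype this median was -0.26 in Tnfr1,2-/- but 0.05 in Tnfr1-/- glomeruli. Some of the genes also differed between the array sets, and the second set held Tnfr1,2-/- 2 and 3. Pkm read 12.58, 11.33 and 11.01 in Tnfr1,2-/- glomeruli, while Pgk1 read 12.46, 12.63 and 12.42. The part of the array sets in the median was not tested. With TNFR1 loss the smallest p-values of the list were those of Pdk1 and Pfkfb3. Pdk1, a kinase that holds back pyruvate dehydrogenase, changed by -0.36 (unadjusted p = 0.0057 and limma adjusted p = 0.13). Pfkfb3, which makes the activator of phosphofructokinase, changed by -0.68 (unadjusted p = 0.012 and limma adjusted p = 0.21). Pfkfb3 averaged 6.31 ± 0.54 in Tnfr1,2-/-, 6.71 ± 0.64 in Tnfr1-/-, 7.24 ± 0.26 in Tnfr2-/- and 7.13 ± 0.08 in wildtype glomeruli (SD, n = 3 each), and the arrays without and with TNFR1 overlapped. The 7 sodium-glucose cotransporters changed by -0.13 to 0.08, and 0 were called or had an unadjusted p under 0.05. Of the other family members, Slc2a13, the myo-inositol carrier, differed by 0.51 (limma adjusted p = 0.40) and Slc2a2, the transporter of liver and islets, by 0.13 (limma adjusted p = 0.96).

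Against wildtype, the 58 genes gave 1 call lower (Xdh) and 1 higher (Abcg2) in Tnfr1,2-/- (1.30% of all genes called), 0 lower and 2 higher (Txnip and Abcg2) in Tnfr1-/- (1.20% of all genes called), and 0 in Tnfr2-/- glomeruli, by limma, by SAM and at an unadjusted p under 0.05. Txnip differed by 0.87 in Tnfr1-/- (limma adjusted p = 0.028) and by 0.40 in Tnfr1,2-/- glomeruli (limma adjusted p = 0.53). The call of Txnip in Tnfr1-/- glomeruli was lost without Tnfr1-/- 2 or 3, Tnfr2-/- 1 or 2, or any wildtype array. With TNFR2 loss and in the interaction limma called 0 of the 58, and 0 and 1 of them had an unadjusted p under 0.05.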

How the data were processed

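Independent RNA preparations, 3 per genotype, were hybridised by the authors to Affymetrix mouse genome arrays. The deposited table holds log2 values, which the authors made by normalizing all 12 arrays together by the robust multichip average (RMA, default chip definition); they were used as deposited and range between 1.93 and 14.1. Array intensities carry no read depth, and the number of arrays limits the precision. Of 45101 probe sets, 34958 had a single symbol in GEO's annotation and were used; 932 with several and 9211 with none were left out. The brightest probe set, by its mean over 12 arrays, stood for each of 18194 genes. limma 3.58.1 in R 4.3.3 was fitted to the 4 genotype means (8 residual degrees of freedom, eBayes without trend), with Benjamini-Hochberg adjustment across the 18194 genes in each of 9 comparisons. The fit was tested on simulated data. Named were all members, the receptor genes, the 10 genes most correlated with Slc2a6, and the called genes or the smallest p-values of each list. Members and lists were chosen with earlier results of these data known. Of the 67 listed pathway genes, 58 were measured, and the others are not reported here. Promoters came from RefSeq (GRCm38.p6). Alternatives were probe set choice, SAM written anew, arrays in the fit, trend, array weights, scaling, filters, blocks, fold threshold and each array left out. Replicate numbers are shared by the genotypes; 15 of 18 same-numbered pairs correlated over 0.1, the others all with Tnfr1,2-/- 2, so the numbers were not taken to pair the arrays over the 4 genotypes.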

Additional observations from a re-analysis of the deposited data

Results flagged for a closer look

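Among 36 groups of 6 arrays checked (9 members, arrays without and with each receptor), 3 held a lowest array far from the rest; chance marks about 1 in 20 groups. Slc2a9 read 5.21 on Tnfr1,2-/- 3, and the nearest other array read 5.45 among the arrays without TNFR1 and 5.42 among those without TNFR2. Slc2a12 read 3.86 on Tnfr1-/- 2, and the nearest other array without TNFR1 read 5.79. Both genes were dim. Leaving out Tnfr1-/- 2 gave Slc2a12 a call at 1.04 with TNFR1 loss.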

How the results depend on the processing

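Under 26 alternatives (14 settings and each of 12 arrays left out) no called value changed sign, and 554 of 600 recomputed counts and Slc2a6 changes kept their call or stayed within 1.5 times. The 600 include counts that were 0 to begin with, and a count can stay the same while its genes differ. Slc2a6 kept its call wherever it was called, with adjusted p up to 0.002.

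Of the 2 members called in Tnfr1-/- against wildtype, 1 was left with all probe sets tested, probe sets of a gene averaged, SAM, only the genotypes compared, a mean-variance trend, median centring, no _s_at or _x_at probe sets or a 2-fold threshold, and 1 to 2 with an array left out. With TNFR1 loss 1 was left (main 2) without _s_at or _x_at probe sets or at 2-fold, and 2 to 3 with an array left out. In Tnfr1,2-/- against Tnfr2-/- 2 were called (main 1) with array weights, and 1 to 2 with an array left out; Slc2a1 and, without Tnfr1-/- 2, Slc2a12 were the added genes. In Tnfr2-/- against Tnfr1-/- 3 were called (main 1) with array weights, the replicate block or the array set as a block, Slc2a3 and Slc2a4 being added, and 1 to 2 with an array left out. In Tnfr1,2-/- against wildtype 1 to 2 were called with an array left out.

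Genes of the pathway lists called in Tnfr1,2-/- against wildtype (main 2) numbered 9 with array weights, 4 with the replicate block and 1 to 2 with an array left out. In Tnfr1-/- against wildtype (main 2) they were 1 with the mean of probe sets, only the genotypes compared or 2-fold, 4 with array weights or the array set as a block, and 1 to 3 with an array left out. With TNFR1 loss (main 7) they were 4 with the mean of probe sets, 2 at 2-fold and 4 to 7 with an array left out.

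Over all genes, calls in Tnfr1,2-/- against wildtype (main 236) ranged between 130 and 269 with an array left out and 161 and 1040 otherwise, in Tnfr1-/- against wildtype (main 219) between 118 and 246 and 97 and 470, and with TNFR1 loss (main 459) between 360 and 536 and 261 and 730. In Tnfr1,2-/- against Tnfr2-/- (main 253) they ranged between 147 and 277 and 168 and 760, and in Tnfr2-/- against Tnfr1-/- (main 219) between 127 and 256 and 150 and 462. In Tnfr2-/- against wildtype (main 0) they reached 2 and 3, and in Tnfr1,2-/- against Tnfr1-/- (main 1) 2 and 4. The causes were not tested.

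The replicate block raised calls over all genes to 597 in Tnfr1,2-/- and 437 in Tnfr1-/- against wildtype. The labels share numbers only: r of same-numbered arrays ran between -0.23 and 0.73 over 18 pairs, 15 of them over 0.1 and the others all with Tnfr1,2-/- 2, and 8 of 12 arrays correlated best with their own number. The replicate block changed no call of a member against wildtype or with loss of either receptor. Dim signals (Slc2a5, Slc2a9, Slc2a12, and Slc2a6 without TNFR1) limit what differences could be detected.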
